A study of Mus musculus with 6 samples.

Results

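The genes described here are the mouse Wnt ligands, their receptors and their modulators, measured by bulk RNA-seq in mouse embryonic stem cells (mESCs) and in cardiac precursor cell cultures (CPCCs) derived from them. Members were chosen by gene symbol alone: every listed Wnt, Fzd, Sfrp, Dkk and Rspo gene, the receptors Lgr4, Lgr5, Lgr6, Lrp5, Lrp6, Ror1 and Ror2, the transcription factors Lef1, Tcf7, Tcf7l1 and Tcf7l2, and Axin1, Axin2 and Ctnnb1. Of the 16279 genes listed in either of the deposited tables, 52 met this rule. Among these, 33 were listed for both cell types, 17 for CPCCs only and 2 for mESCs only. CPCC-only listing thus applied to 32.7% of the members, beside 15.5% of all 16279 genes, of which 79.9% were listed for both cell types and 4.67% for mESCs only.

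Wnt proteins are secreted lipid-modified ligands that bind Frizzled receptors. With an LRP5 or LRP6 co-receptor they stop the destruction complex, in which Axin, APC and the kinase GSK3 mark beta-catenin for degradation, so that beta-catenin can act in the nucleus with TCF/LEF factors. Other Wnt signals pass through Frizzled, ROR or RYK receptors to the cytoskeleton and calcium without beta-catenin. Secreted SFRP and DKK proteins restrain the pathway, and R-spondins strengthen it through LGR receptors. In the embryo Wnt signals help to form mesoderm, and cardiac differentiation needs them at some stages and their inhibition at others.

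Both groups were male F1 cells with a C57BL/6J mother and a CAST/EiJ father, and the labels give the strain as C57BL/6 x CAST/EiJ. The mESCs were 3 clones, each from its own blastocyst, grown without feeders in medium with LIF, the MEK inhibitor PD0325901 and CHIR99021, which inhibits GSK3 and thereby stabilises beta-catenin. The CPCCs were made from those clones. Cells were first aggregated in hanging drops, and the aggregates then formed floating embryoid bodies in medium with ascorbic acid. These bodies were dissociated, and the cells were passaged with EGF and Fgf2. The CPCCs were heterogeneous cultures, and their medium held neither inhibitor. Each group had 3 libraries, named S01 to S03 for mESCs and S04 to S06 for CPCCs as in the tables. Cell type and medium changed together between the groups and cannot be told apart for any result given here.

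The mESC libraries held 6442639 to 6907330 counts and the CPCC libraries 8468819 to 11436062. CPCC library S04 stood farthest from the others of its group, at a root mean square log2 distance of 0.733 over 12471 genes, against 0.447 to 0.573 for the other CPCC libraries and 0.465 to 0.522 for mESC libraries. Checked against the labels, the summed level of 8 pluripotency genes was 3633 to 3855 CPM (counts per 1000000 library counts) in mESCs and 108 to 185 CPM in CPCCs. Of 10 cardiac precursor genes, 9 were listed for CPCCs, with a summed level of 142, 48.9 and 62.8 CPM in S04, S05 and S06 against 4.41 to 6.33 CPM in mESCs. Only 4 of these genes could be tested as described below, and 1 was higher (25%) while 3 did not pass, beside 31.7% higher among all genes tested. Nkx2-5, a defining cardiac factor, was at 1.59, 0 and 0.917 CPM in the CPCC libraries, and Tbx5 was not listed for them. The CPCC libraries held far more of 10 fibroblast and mesenchyme genes, at 6120 to 9408 CPM against 9.89 to 17.3 CPM in mESCs. Neural progenitor genes, 7 of 8 of them listed, summed to 359 to 479 CPM in CPCCs and 17.6 to 25.6 CPM in mESCs, but Nes alone gave 329 to 410 CPM of the CPCC sum. Without Nes the sum was 22.5, 69.2 and 118 CPM in S04, S05 and S06 and 3.82 to 7.75 CPM in mESCs, and Olig2 was lower in CPCCs, at 0.344 to 0.970 CPM, than in mESCs, at 1.76 to 3.24 CPM. Endoderm genes were at 59.7 to 77.1 CPM against 4.56 to 8.34 CPM, with Afp, Ttr and Apoa1 in neither table. The endothelial and blood genes moved in opposite directions, with Pecam1 at 86.0 to 94.3 CPM in mESCs and 3.27 to 6.07 CPM in CPCCs, and Runx1 at 0.147 to 1.08 CPM and 69.1 to 101.6 CPM, so their sum is not informative. In bulk libraries fewer cells of a type and less RNA per cell cannot be told apart, and the part of each cell type in the results was not tested.

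Levels are CPM after TMM normalisation, and differences are log2 fold changes of CPCC over mESC with their standard error (SE), tested with the quasi-likelihood method of edgeR and adjusted by Benjamini-Hochberg over all 12471 genes tested. Of the 32 members that passed the filter on low counts, 18 were higher in CPCCs, 6 were lower and 8 did not pass the adjusted p threshold of 0.05. Over all genes tested, 61.4% were called, 31.7% as higher and 29.7% as lower. Among tested members the median log2 fold change was 1.33, against 0.03 over all genes tested. A member that passed the filter only through its CPCC level had to differ, so these counts carry no weight of their own. Among the 22 members with at least 10 counts in every library, 9 were higher and 6 lower, with a median of 0.28, where 32.1% of all such genes were higher. DESeq2, which called 60.7% of all genes, gave 18 higher and 7 lower members.

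For a gene missing from a table, that group was taken to hold at most 3 counts per library, since neither table lists a gene with under 10 counts over its 3 libraries. This limit corresponds to 0.448 CPM in mESCs against 0.335 CPM in CPCCs. Of the 17 members listed for CPCCs only, 13 were at least 2-fold above this limit on average and 9 at least 10-fold, beside 65.1% and 27.1% of the 2518 genes listed for CPCCs only. With the tables joined and missing genes set to 0 counts, 28 of 43 tested members were higher and 7 lower, beside 36.4% and 28.5% of all genes. When they were set to 3 counts, 27 were higher and 8 lower, beside 34.8% and 31.3%.

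**Figure D1:**
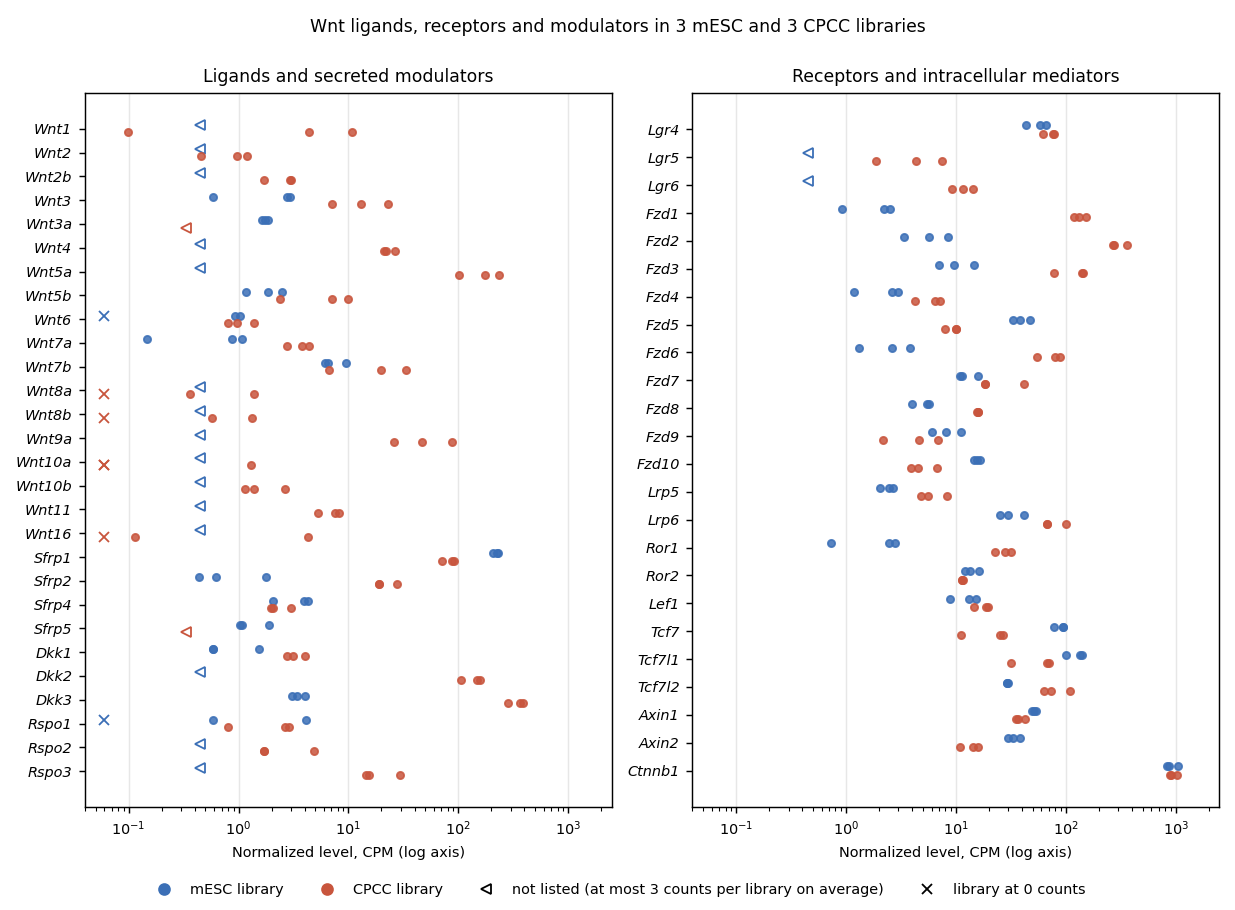
Normalised level of each of the 52 members in every library, in CPM on a log axis, with mESC libraries in blue and CPCC libraries in red. Open triangles mark the 3-count limit where a gene was not listed for a group, and crosses mark libraries at 0 counts. Wnt5a and Dkk2 reach over 100 CPM in CPCCs without being listed for mESCs, whereas the points of Ctnnb1 lie close together near the right edge.

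Most Wnt ligands were listed for CPCCs alone. Of 18 listed ligands, 12 (66.7%) were listed for CPCCs only, 5 for both cell types and Wnt3a for mESCs only. Among all genes, 15.5% were listed for CPCCs only. The 4 ligands that could be tested were all higher in CPCCs, beside 31.7% of all genes tested. Of these, Wnt3, Wnt5b and Wnt7a had mESC libraries as low as 4, 8 and 1 counts. They passed the low-count filter only through their CPCC level, so the count of 4 carries no weight of its own. Per kilobase of exon, the summed ligand level was 4.15 ± 0.35 CPM per kb in mESCs and 65.7 ± 17.7 CPM per kb in CPCCs (SD, n = 3 each). Here and in the other sums per kilobase, genes not listed for a group were set to 0 and not to the 3-count limit. The mESC ligand sum is thus a lower value and shares of it are upper values, which the SD does not cover. Wnt5a supplied 36.1% of the CPCC sum and Wnt9a 23.2%, while Wnt7b, the main mESC ligand on this scale, supplied 39.2% of the mESC sum.

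Wnt5a, a ligand best known for signalling without beta-catenin, was at 232, 177 and 102 CPM in S04, S05 and S06. It was at least 381-fold above the mESC limit. Its locus lies at chr14:28505473-28525516 (mm10, plus strand). Wnt9a was at 88.5, 46.9 and 25.8 CPM, at least 120-fold higher than in mESCs. For both genes S04 was the highest and S06 the lowest library, and the bounds without S04 were 311-fold and 81.2-fold. Wnt4, a ligand of kidney and gonad development, varied less, at 26.7, 21.8 and 20.97 CPM, at least 51.8-fold higher. Wnt11, which acts in heart and mesoderm morphogenesis largely without beta-catenin, was at 5.27, 8.25 and 7.56 CPM, at least 15.7-fold higher.

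The remaining ligands listed for CPCCs only were low and uneven. Wnt1, a ligand of midbrain and neural crest development, was at 0.0994 CPM in S04 but 10.7 and 4.35 CPM in S05 and S06, so its bound of at least 11.3-fold rested on these last libraries. Wnt16 came almost entirely from S05, with 0, 4.24 and 0.115 CPM. Wnt2b reached 2.98, 2.91 and 1.72 CPM and Wnt10b 1.39, 2.67 and 1.15 CPM, at least 5.67-fold and 3.87-fold above the mESC limit. Wnt2, Wnt8a and Wnt8b averaged between 0.580 and 0.874 CPM, under 2-fold above it, and Wnt10a had counts in S04 alone at a mean that did not exceed it, so no fold is given. The gene listed for mESCs only, Wnt3a, a ligand that acts through beta-catenin, was even across its libraries at 1.85, 1.62 and 1.76 CPM, at least 5.20-fold above the CPCC limit.

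Wnt3, needed for mesoderm formation, was at 2.94, 0.588 and 2.78 CPM in mESCs against 22.8, 7.15 and 13.0 CPM in CPCCs. The groups did not overlap, and the log2 fold change was 2.76 ± 0.62 (SE, edgeR adjusted p = 0.00399). Wnt7a was at 1.08, 0.147 and 0.8775 CPM in mESCs against 2.78, 4.37 and 3.78 CPM in CPCCs. It rose by 2.35 ± 0.69 on the log2 scale (edgeR adjusted p = 0.0148), a call that was lost without S05 (edgeR adjusted p = 0.0522, the highest of a range from 0.00442 over all alternatives).

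Wnt5b and Wnt7b passed the test although single libraries overlapped. Wnt5b was at 1.85, 1.18 and 2.49 CPM in mESCs against 2.39, 9.82 and 7.11 CPM in CPCCs, a log2 fold change of 1.79 ± 0.61 (SE, edgeR adjusted p = 0.0293). Wnt7b, used in lung, placenta and vessel development, was at 6.49, 9.56 and 6.14 CPM in mESCs against 6.66, 33.6 and 19.8 CPM in CPCCs, with a log2 fold change of 1.43 ± 0.52 (SE, edgeR adjusted p = 0.0390). In both cases S04 lay within the mESC range and the other CPCC libraries lay above it. Without S04 the log2 fold changes were 2.20 for Wnt5b and 1.86 for Wnt7b, with edgeR adjusted p of 0.00249 and 0.000299. The call of Wnt5b was lost without S01, S02, S05 or S06 (edgeR adjusted p of 0.0639 to 0.132), and that of Wnt7b without each of the 5 libraries other than S04 (edgeR adjusted p of 0.0569 to 0.195), and the log2 fold change of Wnt7b without S05 was 0.84. Sox1, a neural progenitor marker, was likewise lowest of the CPCC libraries in S04, at 3.78 CPM against 23.4 and 50.9 CPM, and its part in the ligand values was not tested. Wnt6 was listed for both groups at 0 to 1.03 CPM in mESCs against 0.795 to 1.38 CPM in CPCCs and was too low to be tested.

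A ligand can act on other cells only after it is lipidated by Porcupine and carried to the surface by Wntless. Wls, which encodes the carrier Wntless, was at 12.8, 9.27 and 11.99 CPM in mESCs against 1059, 710 and 553 CPM in CPCCs, a log2 fold change of 6.09 ± 0.31 (SE, edgeR adjusted p = 1.82e-06). Porcn, the acyltransferase, did not pass, at 0.85 ± 0.40 (SE, edgeR adjusted p = 0.0909), with CPCC values of 7.75, 21.2 and 17.4 CPM of which S04 alone fell in the mESC range of 7.26 to 10.7 CPM. Porcn passed when S04 was left out (edgeR adjusted p = 0.00413, with a range of 0.00413 to 0.312 over all alternatives). Of the 8 Wnt secretion genes examined, 4 were higher (50%), 2 lower (25%) and 2 did not pass, beside 31.7% and 29.7% of all genes tested.

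The secreted Dkk and Sfrp genes moved both ways. Per kilobase, the summed Dkk level was 1.41 ± 0.37 CPM per kb in mESCs and 141 ± 23.6 in CPCCs, whereas the Sfrp sum was 52.6 ± 3.02 CPM per kb in mESCs and 30.5 ± 0.16 in CPCCs (SD, n = 3 each).

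Dkk3, a divergent Dickkopf protein, was at 4.02, 3.38 and 3.07 CPM in mESCs against 368, 387 and 282 CPM in CPCCs. Its log2 fold change of 6.63 ± 0.24 (SE, edgeR adjusted p = 9.64e-07) was the largest among the members tested. Dkk2, an LRP co-receptor ligand, was listed for CPCCs only at 158, 148 and 105 CPM, at least 306-fold higher. All CPCC libraries of both genes lay far above mESC values or the mESC limit. Dkk1, the classical LRP5/6 antagonist, was much lower, at 1.54, 0.588 and 0.585 CPM in mESCs against 2.78, 3.15 and 4.01 CPM in CPCCs, a log2 fold change of 1.86 ± 0.61 (SE, edgeR adjusted p = 0.0241). These groups did not overlap, but the call rested on 18 mESC counts in all. It was lost without S02, S03, S05 or S06 (edgeR adjusted p of 0.0578 to 0.0882).

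Sfrp1, which binds Wnt proteins, was the most abundant Sfrp gene of mESCs, at 207, 224 and 232 CPM, and fell to 70.6, 90.6 and 88.0 CPM in CPCCs. The log2 fold change was -1.41 ± 0.17 (SE, edgeR adjusted p = 0.000113), and the call held in 6 of 6 fits that left out 1 library. Sfrp2 changed the other way, from 0.618, 1.77 and 0.439 CPM to 27.7, 18.9 and 19.02 CPM, with a log2 fold change of 4.51 ± 0.49 (SE, edgeR adjusted p = 6.94e-05). On the per-kilobase scale, Sfrp1 made up 96.2% of the Sfrp sum per kilobase in mESCs and 62.3% in CPCCs, and Sfrp2 35.9% in CPCCs. Exons of Sfrp2 share 17.3% of their length with an antisense transcript, Gm26771, which neither table lists, and whether counting used strand is not given in the sources used here. Sfrp4 did not pass (log2 fold change -0.55 ± 0.51, edgeR adjusted p = 0.375), and Sfrp5 was listed for mESCs only, at 1.08, 1.03 and 1.90 CPM, at least 3.99-fold above the CPCC limit.

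Secreted and surface modulators outside the Sfrp and Dkk families, not all of them antagonists, were more often higher than lower in CPCCs. Frzb, an SFRP relative, was listed for CPCCs only at 9.64, 6.31 and 7.91 CPM, at least 17.8-fold higher. Wif1, which sequesters Wnt proteins, was at 1.08 to 1.76 CPM in mESCs against 2.29, 14.2 and 4.13 CPM in CPCCs, with a log2 fold change of 2.29 ± 0.73 (SE, edgeR adjusted p = 0.0220). That call was lost without S01, S02, S03 or S05 (edgeR adjusted p of 0.0530 to 0.155), and the log2 fold change without S05 was 1.20. Among 19 such secreted and surface modulators, 7 of the 10 tested were higher (70%), 1 was lower (10%) and 2 did not pass. Of all genes tested, 31.7% were higher and 29.7% lower. Another 6 modulators (31.6%) were listed for CPCCs only, beside 15.5% of all genes. Kremen2, a DKK receptor named after its values were seen, was the gene of this list in the mESC table only, at 4.33, 5.74 and 5.12 CPM, at least 15.1-fold above the CPCC limit.

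R-spondins and their LGR receptors were mostly CPCC genes as well. Rspo3, an R-spondin of vessel and placenta development, was listed for CPCCs only at 29.3, 15.4 and 14.3 CPM, at least 44.0-fold higher, with S04 the highest library. Rspo2 was at 1.69, 4.85 and 1.72 CPM, at least 6.15-fold higher. Rspo1 gave no usable contrast, since its mESC libraries held 0, 4.12 and 0.585 CPM, its CPCC libraries 0.795, 2.67 and 2.87 CPM, and its log2 fold change was 0.41 ± 1.08 (SE, edgeR adjusted p = 0.761).

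Lgr4 was expressed in both cell types, at 57.8, 43.1 and 65.8 CPM in mESCs against 78.8, 62.6 and 76.4 CPM in CPCCs. The ranges overlapped and it did not pass (log2 fold change 0.39 ± 0.21, edgeR adjusted p = 0.131). Lgr6 was listed for CPCCs only, at 14.2, 11.5 and 9.17 CPM, at least 26.0-fold higher. Lgr5, a stem cell receptor in several epithelia, was listed for CPCCs only at 1.89, 4.37 and 7.45 CPM, at least 10.2-fold higher. Even so, Lgr4 made up 84.1% of the LGR sum per kilobase in CPCCs. The ligases ZNRF3 and RNF43, which remove Frizzled from the surface and which R-spondin with LGR inhibits, gave no call: Znrf3 had a log2 fold change of -0.52 ± 0.24 (SE, edgeR adjusted p = 0.0932, and 0.0491 without S06), and Rnf43, at 0.147 to 1.32 CPM in mESCs against 0.199 to 3.52 CPM in CPCCs, was too low to be tested.

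All 10 Frizzled receptors were listed for both cell types, beside 79.9% of all genes. In CPCCs 7 were higher (70%), 2 were lower (20%) and 1 did not pass, beside 31.7% and 29.7% of all genes tested. Fzd1, Fzd4 and Fzd6, with mESC libraries as low as 6, 8 and 9 counts, passed the low-count filter only through their CPCC level. These counts of calls thus carry no weight of their own. Their summed level per kilobase was 21.6 ± 2.78 CPM per kb in mESCs and 155 ± 20.4 in CPCCs (SD, n = 3 each), and its makeup also differed. In mESCs Fzd5 held 26.4%, Fzd10 22.7%, Fzd9 16.8% and Fzd7 12.9% of the sum. In CPCCs Fzd2 held 53.1%, Fzd1 20.7% and Fzd6 10.9%.

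The Frizzled genes share stretches of sequence. The longest identical run in their coding sequences was 47 bases, and Fzd1 and Fzd7 also shared a run of 47 bases. The stretches below show these runs in capitals with 20 bases of flank on each side in lower case, read 5′ to 3′ on the coding strand from GENCODE transcripts of GRCm38, because the capitals mark where each pair is identical over the longest run. The study's reads were longer than these runs and could reach the flanks. Within the printed flanks Fzd1 and Fzd2 differ only at the base next to the run on each side, and Fzd1 and Fzd7 differ at more bases.
Fzd1 (chr5:4756311-4756397, minus strand, shared with Fzd2): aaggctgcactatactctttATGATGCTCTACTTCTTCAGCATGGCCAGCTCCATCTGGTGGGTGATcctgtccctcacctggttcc
Fzd2 (chr11:102605720-102605806, plus strand, shared with Fzd1): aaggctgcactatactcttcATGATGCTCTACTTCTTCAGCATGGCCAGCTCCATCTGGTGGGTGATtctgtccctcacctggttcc
Fzd1 (chr5:4756944-4757030, minus strand, shared with Fzd7): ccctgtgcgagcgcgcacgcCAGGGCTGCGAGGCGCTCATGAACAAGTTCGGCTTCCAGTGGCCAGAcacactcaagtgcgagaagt
Fzd7 (chr1:59483324-59483410, plus strand, shared with Fzd1): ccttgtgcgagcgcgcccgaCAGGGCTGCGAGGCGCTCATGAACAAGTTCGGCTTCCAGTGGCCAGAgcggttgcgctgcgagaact

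In library S03 the deposited estimated counts of Fzd1 and Fzd2 were 15.2459 and 38.7541, which are not whole numbers and sum to 54. In the other 5 libraries both genes had whole counts. The combined counts of the pair were 28 to 74 in mESC libraries and 3445 to 4229 in CPCC libraries.

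Fzd1 was at 0.927, 2.501 and 2.19 CPM in mESCs against 133, 152 and 118 CPM in CPCCs, a log2 fold change of 6.14 ± 0.32 (SE, edgeR adjusted p = 1.88e-06). Fzd2 was at 3.40, 8.38 and 5.70 CPM in mESCs against 270, 361 and 276 CPM in CPCCs, a log2 fold change of 5.69 ± 0.33 (SE, edgeR adjusted p = 2.94e-06). Every CPCC library was far above every mESC library for both. Fzd6, a planar polarity receptor, rose from 2.63, 1.32 and 3.80 CPM to 79.1, 88.8 and 55.2 CPM (log2 fold change 4.84 ± 0.37, edgeR adjusted p = 1.08e-05). Fzd3, which acts with Fzd6 in planar polarity and axon guidance, rose from 9.58, 7.06 and 14.5 CPM to 77.6, 142 and 139 CPM (log2 fold change 3.53 ± 0.34, edgeR adjusted p = 3.53e-05). For Fzd3, S04 was the lowest CPCC library and still lay above all mESC libraries.

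The other Frizzled genes that rose did so by less. Fzd8 was at 4.02, 5.44 and 5.70 CPM in mESCs against within 15.7 to 16.0 CPM in CPCCs, with a log2 fold change of 1.65 ± 0.29 (SE, edgeR adjusted p = 0.00111). Fzd4, a receptor of retinal vessel growth, was at 2.63, 2.94 and 1.17 CPM in mESCs against 4.27, 6.43 and 7.22 CPM in CPCCs, with a log2 fold change of 1.40 ± 0.50 (SE, edgeR adjusted p = 0.0351). The call of Fzd4 was lost without S01, S03, S05 or S06 (edgeR adjusted p of 0.0654 to 0.0993). Fzd7 was at 10.8, 11.5 and 15.8 CPM in mESCs against 41.9, 18.3 and 18.6 CPM in CPCCs, so that S04 was more than 2-fold above the other CPCC libraries. The log2 fold change of Fzd7 was 1.05 ± 0.37 (SE, edgeR adjusted p = 0.0328), and without S04 it was 0.55. The call of Fzd7 was lost without S01, S02 or S04 (edgeR adjusted p of 0.0975 to 0.107).

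Fzd5 and Fzd10 moved the other way. Fzd5 fell from 33.4, 38.5 and 47.0 CPM in mESCs to 9.94, 10.1 and 8.02 CPM in CPCCs (log2 fold change -2.08 ± 0.24, edgeR adjusted p = 9.20e-05). Fzd10 fell from 16.7, 14.7 and 15.7 CPM to 3.88, 4.49 and 6.76 CPM (log2 fold change -1.64 ± 0.32, edgeR adjusted p = 0.00196). Neither gene had overlapping groups, and both calls held in all 6 fits without 1 library. Fzd9 was at 6.02, 11.03 and 8.19 CPM in mESCs against 2.19, 4.61 and 6.88 CPM in CPCCs, with overlap, and did not pass (log2 fold change -0.89 ± 0.48, edgeR adjusted p = 0.137). A transcript on the opposite strand, Gm38058, shares 17.8% of the exon length of Fzd5 and is in neither table.

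**Figure D2:**
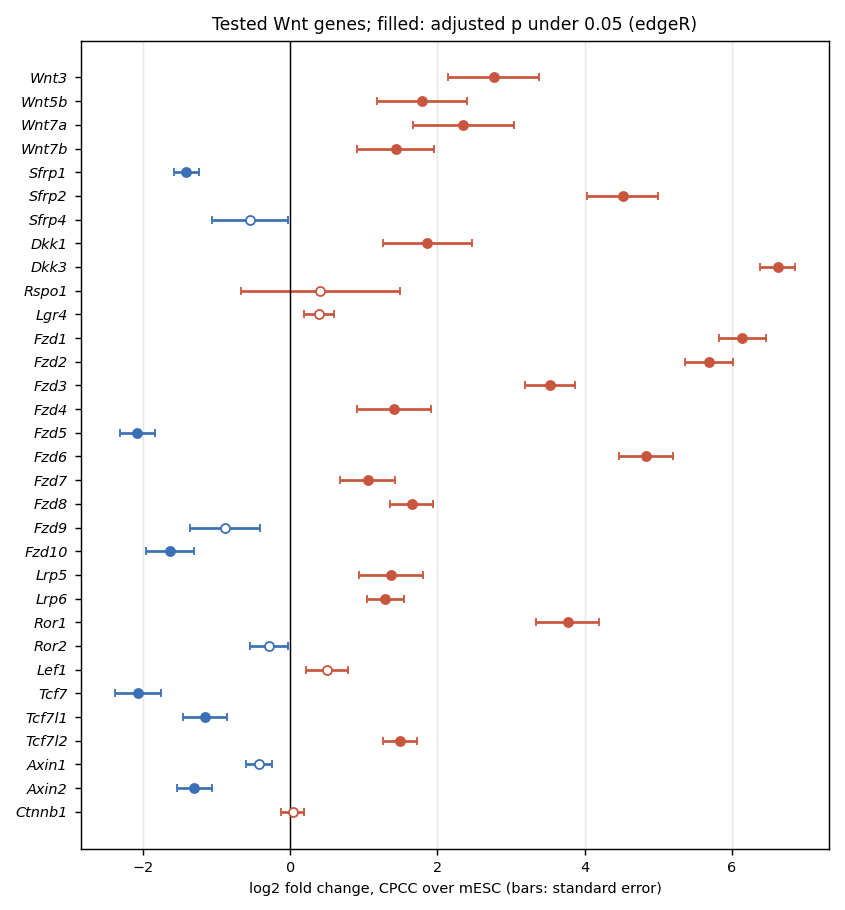
Log2 fold change of CPCC over mESC for the 32 tested members, with bars of 1 SE, filled where the edgeR adjusted p was under 0.05 and open otherwise. Dkk3, Fzd1 and Fzd2 lie farthest to the right at 6.63, 6.14 and 5.69, and Fzd5 and Tcf7 farthest to the left.

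**Figure D3:**
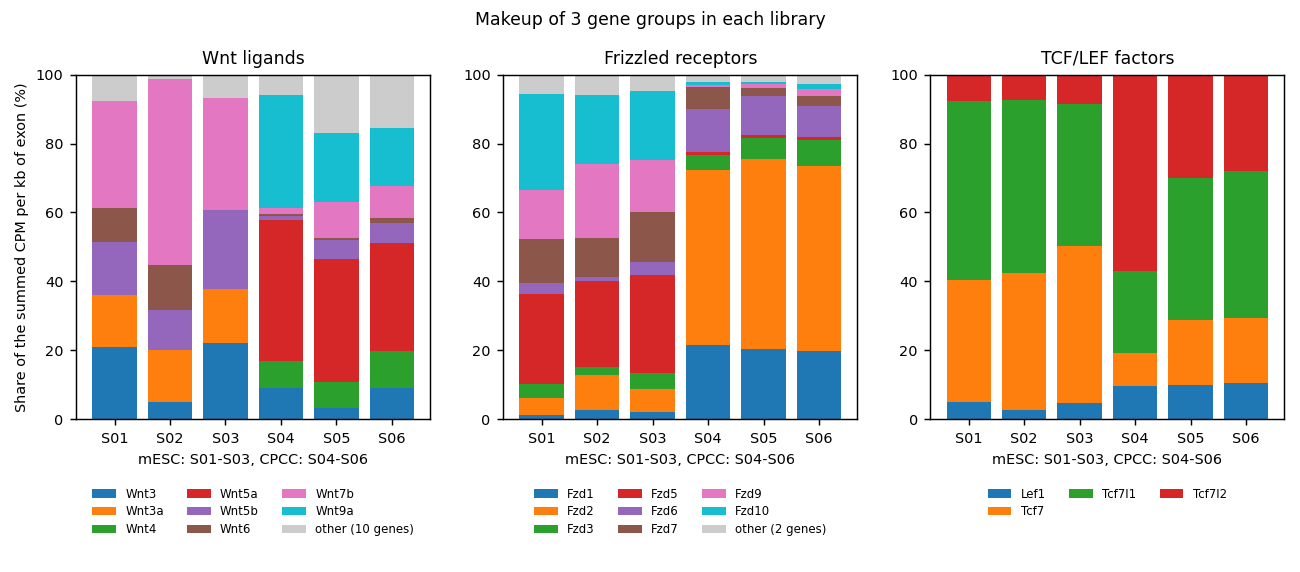
Share of each gene in the summed CPM per kilobase of exon of the Wnt ligands, Frizzled receptors and TCF/LEF factors, in percent, for each mESC library (S01 to S03) and CPCC library (S04 to S06). Fzd2 takes 50.7% to 55.1% of the Frizzled bar in every CPCC library, whereas Tcf7l2 takes 57.1% of the TCF/LEF bar in S04 and 30.1% and 28.1% in the other CPCC libraries.

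The co-receptors for beta-catenin signalling were both higher in CPCCs. Lrp6 was at 29.5, 25.3 and 41.5 CPM in mESCs against 100.001, 67.5 and 67.7 CPM in CPCCs (log2 fold change 1.29 ± 0.25, edgeR adjusted p = 0.00189). Lrp5, also known for its role in bone mass, was lower, at 2.47, 2.65 and 2.05 CPM in mESCs against 5.57, 8.25 and 4.81 CPM in CPCCs (log2 fold change 1.37 ± 0.44, edgeR adjusted p = 0.0220). The groups of neither gene overlapped. The call of Lrp6 held in all 6 fits without 1 library, while that of Lrp5 was lost without S01, S03 or S05 (edgeR adjusted p of 0.0556 to 0.104).

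Receptors that act without beta-catenin did not move together. Ror1, a receptor for Wnt5a, was at 2.47, 0.735 and 2.78 CPM in mESCs against 28.0, 22.7 and 31.5 CPM in CPCCs, a log2 fold change of 3.77 ± 0.43 (SE, edgeR adjusted p = 9.27e-05). Its relative Ror2 was at 13.4, 12.2 and 16.4 CPM in mESCs against 11.3, 11.6 and 11.4 CPM in CPCCs. All CPCC libraries were below all mESC libraries for Ror2, but the log2 fold change of -0.29 ± 0.26 did not pass (edgeR adjusted p = 0.349). Ror1 made up 8.77 ± 4.07% of the Ror sum per kilobase in mESCs and 62.6 ± 4.26% in CPCCs (SD, n = 3 each). Ryk, another Wnt receptor, rose by 0.97 ± 0.24 on the log2 scale (edgeR adjusted p = 0.00635). Of 8 other receptors and co-receptors examined, 4 of the 7 tested were higher (57.1%), 1 was lower (14.3%) and 2 did not pass. Beside these stand 31.7% higher and 29.7% lower over all genes tested.

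Inside the cell, Ctnnb1, which encodes beta-catenin, was at 873, 838 and 1054 CPM in mESCs against 1027, 890 and 906 CPM in CPCCs. The ranges overlapped, and the log2 fold change was 0.03 ± 0.15 (SE, edgeR adjusted p = 0.874). These are RNA levels, and beta-catenin is regulated chiefly through the stability of its protein, which was not measured.

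Axin2, a scaffold of the destruction complex whose transcription is itself induced by beta-catenin, was at 38.0, 33.2 and 30.0 CPM in mESCs against 14.2, 15.8 and 11.002 CPM in CPCCs. No libraries overlapped, the log2 fold change was -1.30 ± 0.23 (SE, edgeR adjusted p = 0.00119), and the call held in all 6 fits without 1 library. Axin1, the scaffold expressed in most tissues, was at 49.6, 50.9 and 53.4 CPM in mESCs against 36.9, 42.4 and 35.0 CPM in CPCCs. All CPCC values lay below the mESC values, and at a log2 fold change of -0.43 ± 0.17 Axin1 did not pass (edgeR adjusted p = 0.0575), whereas DESeq2 gave an adjusted p of 0.0496 and the range over all alternatives was 0.0251 to 0.148.

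The other parts of the complex were more often higher than lower. Gsk3b, the kinase that marks beta-catenin and that CHIR99021 inhibits, rose by 1.46 ± 0.22 on the log2 scale (edgeR adjusted p = 0.000470), while Apc did not pass at 0.23 ± 0.18 (edgeR adjusted p = 0.295). The Dishevelled genes, which relay the receptor signal, differed from each other: Dvl3 rose by 1.29 ± 0.16 (edgeR adjusted p = 0.000147), Dvl2 had a log2 fold change of -1.13 ± 0.29 (edgeR adjusted p = 0.00865) and Dvl1 did not pass at 0.28 ± 0.17 (edgeR adjusted p = 0.184). Of 20 tested genes of Dishevelled and the destruction complex, 10 were higher (50%), 3 were lower (15%) and 7 did not pass. The shares over all genes tested were 31.7% higher and 29.7% lower. The median log2 fold change of these 20 genes was 0.46.

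The TCF/LEF factors, which carry beta-catenin to DNA, changed in makeup and in sum. Their summed level per kilobase was 84.7 ± 5.97 CPM per kb in mESCs and 49.9 ± 6.00 in CPCCs (SD, n = 3 each). Tcf7l1 with 47.8% and Tcf7 with 40.2% made up most of it in mESCs. In CPCCs the mean shares were 38.4% for Tcf7l2, 35.8% for Tcf7l1, 15.8% for Tcf7 and 10.01% for Lef1. The order of the leading pair rested on S04, since Tcf7l2 held 57.1%, 30.1% and 28.1% in S04, S05 and S06 and Tcf7l1 held 23.6%, 41.2% and 42.6%.

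Tcf7l1, which acts mostly as a repressor in mESCs, fell from 135, 140 and 100.3 CPM to 31.5, 70.0 and 67.2 CPM (log2 fold change -1.16 ± 0.30, edgeR adjusted p = 0.00836). Tcf7, an activator of beta-catenin targets in mESCs, fell from 78.8, 94.3 and 93.9 CPM to 11.1, 27.0 and 25.3 CPM (log2 fold change -2.08 ± 0.31, edgeR adjusted p = 0.000459). For both, S04 was the lowest CPCC library. Tcf7l2 rose from 29.0, 29.7 and 29.3 CPM to 109, 73.5 and 63.6 CPM (log2 fold change 1.49 ± 0.23, edgeR adjusted p = 0.000512), with S04 the highest. Without S04 the log2 fold changes were -0.86 for Tcf7l1, -1.75 for Tcf7 and 1.24 for Tcf7l2, and all passed the test. Lef1 was at 15.3, 8.83 and 13.0 CPM in mESCs against 14.5, 19.4 and 18.7 CPM in CPCCs, with overlap, and did not pass (log2 fold change 0.50 ± 0.29, edgeR adjusted p = 0.159). An antisense transcript in neither table, Gm43352, shares 34.5% of the exon length of Lef1, and Gm15401, listed in both tables, shares 2.7% of that of Tcf7l1. Annotated genes on the opposite strand, in neither table, also share exon length with Rspo3 (13.1%), Wnt11 (10.1%), Wnt7b (5.1%), Axin2 (4.9%) and Fzd6 (3.5%).

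**Figure D4:**
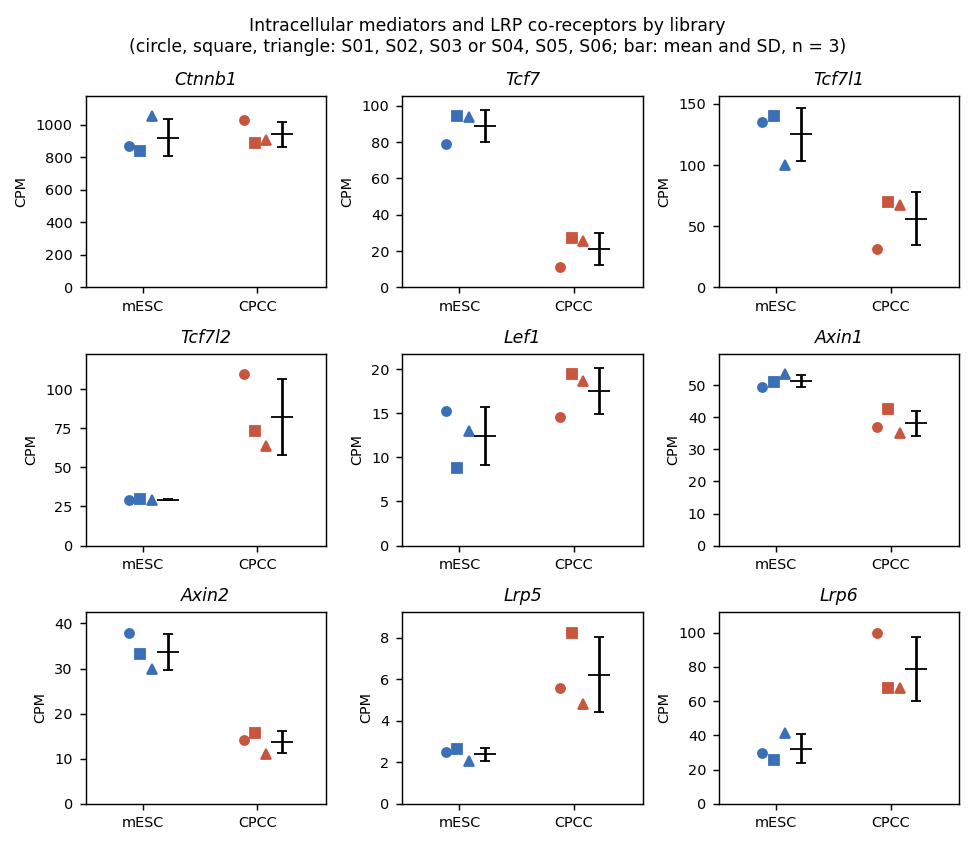
Level in CPM of beta-catenin (Ctnnb1), the TCF/LEF factors, both Axin genes and the LRP co-receptors in each library, with the mean and SD of 3 libraries as bars and every axis starting at 0. The mESC and CPCC points of Ctnnb1 and Lef1 overlap, while those of Tcf7, Tcf7l1, Axin1 and Axin2 are separate with CPCCs lower and those of Tcf7l2, Lrp5 and Lrp6 are separate with CPCCs higher.

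Because several members are themselves targets of TCF/LEF factors, promoter windows were searched for the TCF/LEF recognition letters CTTTG when they were followed by AA, AT, TA or TT, on both strands. The windows reach from 250 bases before to 50 bases after a RefSeq start in GRCm38.p6, and 44 windows were found for 35 of the 52 members. The letters were in 7 of 44 member windows (15.9%) and in 16.9% of all 32851 windows. The genes with a match were Dkk1, Fzd7, Lef1, Tcf7l2, Wnt3, Wnt5b and Wnt11, and the Axin2 window held none. A match describes letters, not binding, and no match says only that these letters are not in that window. The Dkk1 window is printed because it alone among the members held 2 matches, and the window at an internal start of Tcf7l2 because Tcf7l2 was the TCF/LEF gene that rose; capitals mark the matches.
Dkk1 promoter window (chr19:30549447-30549746, minus strand): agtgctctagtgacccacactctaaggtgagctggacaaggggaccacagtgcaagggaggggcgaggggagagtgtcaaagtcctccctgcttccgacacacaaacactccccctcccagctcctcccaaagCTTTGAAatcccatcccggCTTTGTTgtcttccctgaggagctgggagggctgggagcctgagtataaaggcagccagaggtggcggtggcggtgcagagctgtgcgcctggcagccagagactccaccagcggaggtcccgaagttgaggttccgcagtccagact
Tcf7l2 window at an internal start (chr19:55895071-55895370, plus strand): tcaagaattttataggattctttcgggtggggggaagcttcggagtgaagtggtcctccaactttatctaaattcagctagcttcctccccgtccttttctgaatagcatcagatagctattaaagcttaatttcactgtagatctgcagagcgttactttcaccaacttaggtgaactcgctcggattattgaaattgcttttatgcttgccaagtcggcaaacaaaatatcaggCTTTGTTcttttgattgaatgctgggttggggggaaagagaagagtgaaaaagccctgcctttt

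Genes known as beta-catenin targets or feedback genes moved in both directions. Of 21 tested, 8 were higher in CPCCs (38.1%), 8 were lower (38.1%) and 5 did not pass, with a median log2 fold change of 0.50. All genes tested were also split between directions, with 31.7% higher and 29.7% lower. T, which encodes the mesoderm factor Brachyury, was at 80.3, 67.5 and 63.0 CPM in mESCs against 3.58, 6.91 and 13.2 CPM in CPCCs (log2 fold change -3.16 ± 0.41, edgeR adjusted p = 0.000192). Sp5, a transcriptional repressor induced by Wnt, fell from 26.3, 28.1 and 26.3 CPM to 2.78, 10.3 and 4.81 CPM (log2 fold change -2.18 ± 0.43, edgeR adjusted p = 0.00202). Nkd1, a feedback inhibitor that binds Dishevelled, rose by 2.73 ± 0.33 on the log2 scale (edgeR adjusted p = 0.000124). The list shares Axin2, Dkk1, Lef1, Lgr5 and Tcf7 with the members described above.

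Of 17 tested nuclear cofactors of beta-catenin, 5 were higher (29.4%), 5 were lower (29.4%) and 7 did not pass, with a median log2 fold change of 0.20, and these shares are near the 31.7% and 29.7% of all genes tested. Among planar cell polarity and other non-canonical genes, 11 of 23 tested were higher (47.8%), 2 were lower (8.7%) and 10 did not pass, with a median of 0.65. Vangl2, a core polarity gene, was at 35.7, 35.9 and 32.6 CPM in mESCs against 22.4, 56.6 and 57.8 CPM in CPCCs, so S04 lay below and the other CPCC libraries above all mESC libraries. Its log2 fold change of 0.39 ± 0.33 did not pass (edgeR adjusted p = 0.330), but it passed without S04 (log2 fold change 0.73, edgeR adjusted p = 0.00327).

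**Figure D5:**
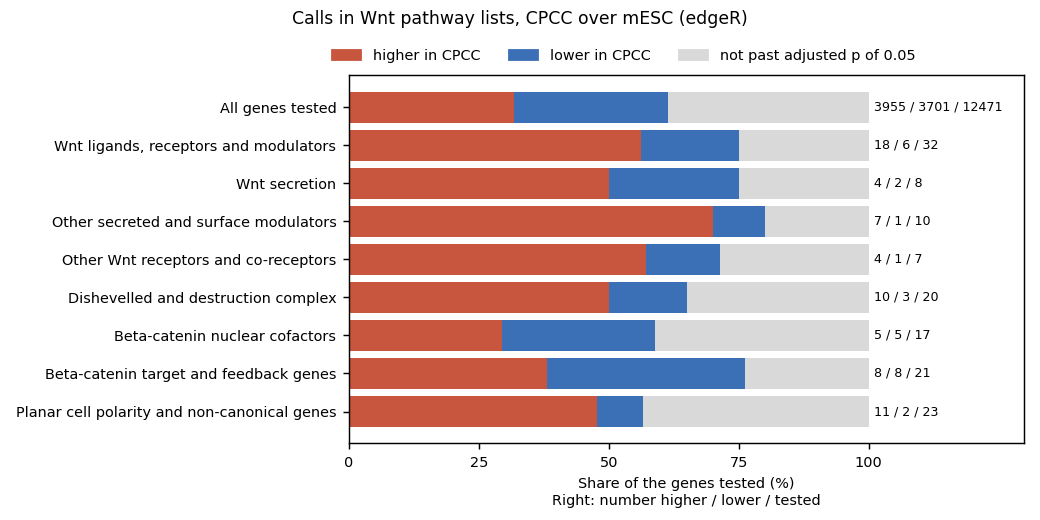
Share of the genes tested in each Wnt pathway list that were higher (red) or lower (blue) in CPCCs or did not pass the edgeR adjusted p threshold of 0.05 (grey), with the number higher, lower and tested at the right. The top bar gives all 12471 genes tested, 31.7% of them higher and 29.7% lower.

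Libraries of 24 of the 32 tested members did not overlap between the groups, 16 of them with CPCCs above and 8 with CPCCs below, beside 69.7% of all genes tested. Of the 24 called members, 17 kept their call in every fit that left out 1 library, among them all 6 lower ones (Axin2, Fzd5, Fzd10, Sfrp1, Tcf7 and Tcf7l1). Leaving out S05 gave the lowest number of higher members, 12, and leaving out S04 gave 17.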

How the data were processed

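The authors deposited 1 table of estimated counts per gene for each cell type, with 3 libraries each from SMART-Seq v4 cDNA. The submitters' processing notes name STAR 2.7 and mm10. The counting tool and its strand setting are not given in the sources used here. Values were not all whole (17.8% to 21.4% of values per library were fractional) and were rounded. The 13001 genes in both tables were filtered with filterByExpr, scaled by TMM and tested with edgeR 4.0.16 (R 4.3.3, quasi-likelihood F test, Benjamini-Hochberg adjustment over 12471 genes). DESeq2 1.42.0, other scalings and filters, both tables joined with missing genes at 0 or 3 counts, and leaving out each library were run as alternatives. The table columns S01 to S06 match groups, not numbered samples. Replicates were clones, and no libraries of a group were within sampling noise of each other (chi-square per degree of freedom 4.77 or more). Exon lengths came from GENCODE M21 basic, and only 11 of the 52 members had the same span in the tables as there, within 1 base, so levels per kilobase are approximate. The 3-count limit covers counting error only.

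The rule on gene symbols that chose the members, and the gene lists, were set with earlier results of these data known. Named genes were every member that passed at a 2-fold change or more, members of 1 table at 1 CPM or more, the mediators and LRP co-receptors, and a set of pathway genes named whatever their change. Sequences are from GENCODE M21 transcripts and RefSeq promoter windows (GRCm38.p6).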

Additional observations from a re-analysis of the deposited data

How the results depend on the processing

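The numbers of members called higher and lower (18 and 6) were the same under another scaling by library totals, and DESeq2 gave 18 and 7. With at least 10 counts required in every library, 9 members were higher and their median log2 fold change was 0.28, over 22 members tested. With both tables joined and missing genes at 0 counts, 28 were higher with a median of 1.67, over 43 tested. This setting gave 13 called modulators outside the Sfrp, Dkk and Rspo families in place of 8, as did missing genes at 3 counts (13). Requiring also a 2-fold change left 3 of 5 calls among other receptors, 8 of 13 in the destruction complex and 6 of 10 among nuclear cofactors. Without 1 library the members called higher ranged from 12 to 17, those called lower stayed at 6, their median ranged from 1.16 to 1.48, and calls over all genes from 6536 to 7895 (main 7656). The small log2 fold change of Ctnnb1 (0.03) turned to -0.038 with missing genes at 3 counts and to -0.029, -0.024 and -0.0094 without S02, S04 and S01, with a highest value of 0.137 without S03. That of Rspo1 (0.41) turned to -0.17 without S01 and rose to 2.76 without S02. The causes were not tested. In all, 10 of the 32 tested members changed call or sign under some setting, 7 of them only when 1 library was left out. No paired analysis was possible because the columns of the tables carry no replicate numbers. With 3 libraries a group, 0.448 CPM in mESCs and 0.335 CPM in CPCCs is the least level that can be told from a gene left out of a table.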
